A study of Mus musculus with 58 samples.

Results

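The genes described here are 51 transcripts that mouse hepatocytes make in large amounts, out of 25307 genes measured. They comprise the 22 genes named Mup followed by a number, which encode the major urinary proteins, and 29 listed genes: Alb, Apoa1, Apoa2, Apoc3, Apoh, Ttr, Serpina1a to Serpina1e, Serpina3k, Fga, Fgb, Fgg, Trf, Ahsg, Fabp1, Hp, Hpx, Rbp4, Cyp2e1, Cyp3a11, Car3, Ass1, Cps1, Ambp, Gc and Vtn. They were counted not in hepatocytes but in macrophages and monocytes isolated from the liver. The genes were chosen by measured values of these same libraries: a fall of Mup9 in Kupffer cells 2 weeks after bile duct ligation, the hepatocyte share of Kupffer cell reads, and the colitis Kupffer cell library of replicate 4 had stood out. Comparisons that use the Kupffer cell libraries of the sham, 2-week ligation or colitis groups are therefore given as values with no test, and 24 of 36 comparisons were tested. The hepatocyte share may also have drawn on the other Kupffer cell groups, so tests that use these may not be independent of the choice.

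The 58 libraries came from 129SV mice and cover 3 cell types of the liver: Kupffer cells (KC, its resident macrophages), monocyte-derived macrophages (MoMF) and monocytes (Mo). The injury groups were sham controls (Sham6w, labelled 6 weeks), bile duct ligation at the onset of cholestatic injury (CBDL2w, 2 weeks) or once it was advanced (CBDL6w, 6 weeks), acute colitis (DSS, time not given), and both advanced cholestatic injury and colitis (CBDL+DSS). Each group of 1 cell type and 1 injury held 4 libraries, except the Sham6w groups of MoMF and Mo with 3. Of the 58, 9 libraries join material of 2 or 3 replicate numbers, and these include 2 of the 3 Sham6w libraries of MoMF and of Mo. The 6-week sham group was the only control, also for the 2-week injury. How the cells were sorted, and whether same-numbered libraries of different cell types share a mouse, is not given in the sources used here, so p-values measure the spread between these libraries.

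Depth ran from 118687 to 521954 deduplicated reads per library, with 8885 to 13360 genes detected. Transcripts of 4 Y-linked genes were present in every library (summed normalized count 20.4 to 91.9) and Xist gave 1 read in 1 library. Kupffer cell markers took 0.535% to 1.06% of reads in the KC group means and 0.0686% to 0.302% in the other groups, and monocyte markers took 0.635% to 1.10% in Mo, 0.123% to 0.478% in MoMF and 0.0290% to 0.149% in KC, as the labels say. Values below are the authors' size-factor normalized counts unless a share of reads is named, and differences are on the log2(normalized count + 1) scale, which understates the change of low genes.

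Major urinary proteins are small lipocalins that hepatocytes secrete and the kidney passes into urine, where they bind pheromones; their genes form a cluster of near-identical copies, and their expression in the male liver depends on pulsatile growth hormone. Albumin, transthyretin, apolipoproteins, fibrinogen and the serpins of the Serpina1 group are plasma proteins of the same cells, and several, such as haptoglobin (Hp) and the fibrinogen chains, belong to the acute phase response. Bile duct ligation dams bile in the liver and injures hepatocytes, while macrophages take up cell debris, and hepatocyte RNA in a macrophage preparation can be carried over, engulfed or made by the cells themselves. Which of these applies here was not tested.

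The Mup genes lie on chromosome 4 between 59956804 and 62150863 (GRCm38), 21 of the 22 on the minus strand. Most are so alike that a short read from the end of the transcript often cannot be given to 1 of them. The last 60 coding bases before the stop codon, read from the GENCODE M21 transcripts of the C57BL/6J reference, were identical in 16 of the 22 genes and differed at 1 to 7 positions in the other 6. They are shown for Mup9, the member with the most reads, Mup14, Mup7 and the more divergent Mup20 and Mup3, with capitals where a base differs from Mup9. Each stretch spans 2 exons on the minus strand: chr4:60419111-60419333 for Mup9, chr4:61301103-61301325 for Mup14, chr4:60067533-60067756 for Mup7, chr4:62051295-62051518 for Mup20 and chr4:62084571-62084795 for Mup3.
Mup9: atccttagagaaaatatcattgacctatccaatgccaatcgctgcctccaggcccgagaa
Mup14: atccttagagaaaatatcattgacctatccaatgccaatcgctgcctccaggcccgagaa
Mup7: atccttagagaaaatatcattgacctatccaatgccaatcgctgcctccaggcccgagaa
Mup20: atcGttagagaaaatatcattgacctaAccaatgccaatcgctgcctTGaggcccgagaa
Mup3: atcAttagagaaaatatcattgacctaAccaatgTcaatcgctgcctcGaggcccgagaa

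In the last 300 bases of the transcripts, the part a 3′ library reads, all windows of 50 bases recurred in another Mup gene for 10 of the 22 genes, and the median over the 22 was 84.7% of windows. Mup6 shared none, Mup3 6.37% and Mup20 7.17%. The 5 Serpina1 genes on chromosome 12 shared 15.9% to 44.6% of theirs. The Mup genes were therefore summed, and Serpina1a to Serpina1e likewise, which turned the 51 genes into 26 features. Values for single Mup genes are uncertain for this reason; within the sum, Mup9 took 16.0% of Mup reads in KC Sham6w, 13.1% in KC CBDL2w, 13.5% in KC DSS, 14.4% in MoMF Sham6w and 16.5% in Mo Sham6w.

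The promoters of the 2 kinds of members also differ in their letters. RefSeq windows of 250 bases before the transcription start (GRCm38.p6) were at hand for 14 Mup genes and 22 listed genes. The hexamer GTTAAT, the core of the site of the hepatocyte factor HNF1, was found on either strand in 0 of 14 Mup windows, in 11 of 24 windows of listed members (45.8%) and in 6.43% of all 32851 windows. TTGCNNAA, a core of the C/EBP site, was likewise in 0 of 14, 11 of 24 and 9.56%. TTCNNNGAA, the STAT site, was in 0 of 14, 2 of 24 (8.33%) and 7.02%. TATAAA, a core of the TATA box, was in 2 of 14 (14.3%), 6 of 24 (25.0%) and 12.4%. The Mup9 and Mup3 stretches printed below hold TATATAAG, which an exact match of TATAAA does not count. These counts therefore do not tell which promoters have a TATA box. The Mup windows come from near-identical genes, so they are not independent. A run of 22 bases, taken as the longest shared by the Mup9, Mup14 and Mup3 windows, was in 10 of the 14 Mup windows and in no other window. It lies at different distances from the annotated starts, so the windows do not cover the same stretch. The 150 bases before the start are shown for 3 Mup genes, with that run in capitals, and for Alb and Serpina1b, with GTTAAT in capitals. Matches are a description of letters in these windows; sites further upstream were not looked at. The positions are chr4:60421953-60422102 for Mup9, chr4:61303999-61304148 for Mup14, chr4:62087318-62087467 for Mup3 and chr12:103738190-103738339 for Serpina1b, all on the minus strand, and chr5:90460720-90460869 on the plus strand for Alb.
Mup9: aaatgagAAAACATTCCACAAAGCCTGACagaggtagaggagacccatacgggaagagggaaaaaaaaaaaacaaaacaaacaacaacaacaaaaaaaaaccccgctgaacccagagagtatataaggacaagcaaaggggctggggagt
Mup14: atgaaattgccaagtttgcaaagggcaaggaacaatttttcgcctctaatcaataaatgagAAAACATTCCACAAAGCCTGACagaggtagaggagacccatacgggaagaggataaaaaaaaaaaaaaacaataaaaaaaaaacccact
Mup3: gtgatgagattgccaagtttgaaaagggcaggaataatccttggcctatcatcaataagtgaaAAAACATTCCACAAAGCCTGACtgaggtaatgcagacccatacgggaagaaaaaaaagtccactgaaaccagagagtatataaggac
Alb: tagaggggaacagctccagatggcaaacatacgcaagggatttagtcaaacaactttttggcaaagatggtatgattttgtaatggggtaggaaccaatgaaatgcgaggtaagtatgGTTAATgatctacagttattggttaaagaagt
Serpina1b: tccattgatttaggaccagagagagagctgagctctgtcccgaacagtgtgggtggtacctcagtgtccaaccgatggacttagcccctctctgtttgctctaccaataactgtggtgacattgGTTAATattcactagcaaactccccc

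Mup transcripts were abundant in cells from sham livers and scarce in cells from ligated livers, in each of the 3 cell types. In Kupffer cells the summed Mup count was 3078, 3233, 4475 and 1583 in the 4 Sham6w libraries, and 95.8, 24.9, 54.2 and 45.6 in the 4 CBDL2w libraries. It was 301, 60.1, 277 and 13.9 in CBDL6w, and 1.39, 2.49, 37.3 and 17.3 in CBDL+DSS. Every sham Kupffer cell library thus lay above every ligated one. The colitis libraries stood between, at 985, 494, 242 and 2080, where replicate 4 exceeded the lowest sham library and replicate 3 lay below the highest ligated ones. The fitted differences from Sham6w, given with no test, were -5.85 ± 0.96 (SE) for CBDL2w, -4.95 ± 0.96 for CBDL6w, -8.37 ± 0.96 for CBDL+DSS and -2.04 ± 0.96 for DSS. Markers moved in the same libraries: monocyte markers took 0.0209% to 0.0321% of reads in KC Sham6w, 0.113% to 0.187% in CBDL2w, 0.0568% to 0.173% in CBDL6w, 0.0426% to 0.107% in DSS and 0.0269% to 0.0685% in CBDL+DSS. Kupffer cell markers took 1.00% to 1.09%, 0.482% to 0.633%, 0.372% to 0.707%, 0.710% to 0.878% and 0.692% to 0.859% in the same order, and endothelial markers 0.0372% to 0.0674% in Sham6w and 0.0249% to 0.0400% in CBDL2w. Their part in the Mup levels was not tested.

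**Figure D1:**
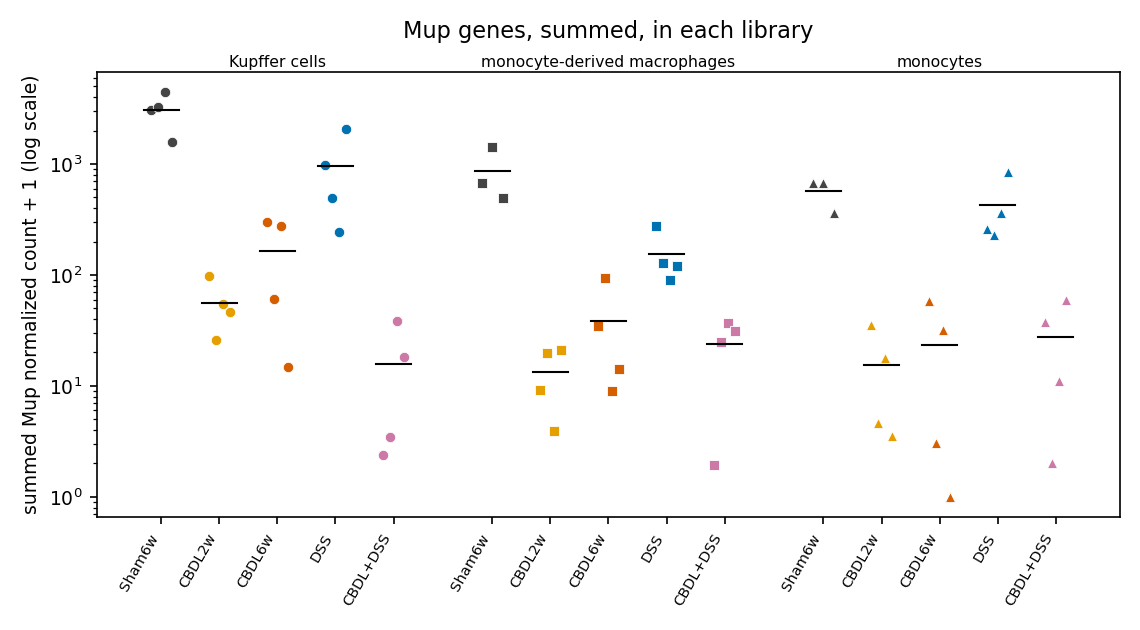
Summed normalized count of the 22 Mup genes plus 1, on a log axis, in each of the 58 libraries, grouped by cell type and injury, with a black bar at each group mean. Group means are highest in Sham6w and next in DSS in each cell type, single DSS libraries reach the sham range in KC and Mo, and the ligated libraries reach at most 301 in KC, 93.5 in MoMF and 58.7 in Mo.

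In monocyte-derived macrophages the summed Mup count fell after ligation. The values named for the choice of genes came from Kupffer cells. Whether MoMF libraries share mice with those is not known, so neither is their independence of the choice. The fall is read from the summed Mup count. This count was 676, 1428 and 498 in the 3 Sham6w libraries, against 8.18, 18.6, 2.94 and 19.9 in CBDL2w. The CBDL6w libraries held 33.5, 93.5, 7.98 and 13.3, and the CBDL+DSS libraries 0.919, 23.9, 36.2 and 30.5. No ligated library overlapped the sham libraries, and only CBDL6w replicate 2 (93.5) overlapped the colitis libraries, which held 277, 126, 88.9 and 120.

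The difference from Sham6w was -6.15 ± 0.84 (SE, 4 against 3 libraries) in CBDL2w with an adjusted p of 1.56e-04, -4.95 ± 0.84 in CBDL6w (adjusted p 0.00363) and -5.67 ± 0.84 in CBDL+DSS (adjusted p 1.56e-04), by limma with Benjamini-Hochberg adjustment over 6063 features. In colitis alone it was -2.48 ± 0.84 and did not pass (adjusted p 0.131), although no colitis library reached the lowest sham library. edgeR called that difference on the recovered reads (adjusted p 0.0278). The 4 comparisons share the same 3 sham libraries. Of the 6 member features that could be tested in this cell type, 2 passed in CBDL2w (2.77% of all features did), 1 in CBDL6w (0.841%), 2 in CBDL+DSS (9.34%) and 0 in DSS (2.06%; 3 had an unadjusted p under 0.05, edgeR called 1 and DESeq2 called 0). The CBDL6w call was lost without a filter on low values (limma, adjusted p 0.0573), with the replicate block and with single-number libraries only. All 3 calls held when any 1 library was left out.

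Other cell types' markers moved beside these falls in MoMF. Endothelial markers took 0.0371% to 0.0624% of reads in Sham6w, 0.0111% to 0.0224% in CBDL2w, 0.0166% to 0.0230% in CBDL6w, 0.00880% to 0.0467% in CBDL+DSS and 0.165% to 0.184% in DSS. Lymphocyte markers took 0.0118% to 0.0415% in Sham6w and 0.00391% to 0.00833% in CBDL2w. Kupffer cell markers took 0.120% to 0.406% in Sham6w and 0.0725% to 0.116% in CBDL2w, and monocyte markers 0.0993% to 0.153% and 0.444% to 0.526%. Their part in the Mup difference was not tested.

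In monocytes the Mup sum fell after ligation as well. Of the 4 colitis libraries, 1 lay above all sham libraries and the others below them. The summed Mup count was 673, 678 and 360 in Sham6w and 261, 227, 359 and 846 in DSS, and it was 34.4, 3.60, 16.7 and 2.54 in CBDL2w, 56.7, 2.08, 30.6 and 0 in CBDL6w, and 36.7, 1.02, 10.0 and 58.7 in CBDL+DSS. The 7 libraries without ligation (227 to 846) and the 12 with it (0 to 58.7) did not overlap. The difference from Sham6w was -5.77 ± 1.24 in CBDL2w (limma, adjusted p 0.00403), -5.99 ± 1.24 in CBDL6w (adjusted p 0.00416) and -5.20 ± 1.24 in CBDL+DSS (adjusted p 0.0115). In colitis alone it was -0.58 ± 1.24 (adjusted p 0.854), a value that turned to 0.02 with single-number libraries only. Of the 6 members tested over 6096 features, 2 passed in CBDL2w (13.4% of all features), 2 in CBDL6w (11.0%), 2 in CBDL+DSS (12.8%) and 0 in DSS (1.59%; 2 had an unadjusted p under 0.05, edgeR called 0 and DESeq2 called 1).

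The 3 ligation calls in monocytes held when any 1 library was left out. Each was lost with single-number libraries only, which leaves 1 sham library. The CBDL+DSS call was also lost without the filter and with the replicate block. Endothelial markers fell in the same libraries. They took 0.252% to 0.437% of reads in Mo Sham6w and 0.169% to 0.353% in DSS, against 0.0120% to 0.0192% in CBDL2w, 0.01003% to 0.0314% in CBDL6w and 0.0218% to 0.0315% in CBDL+DSS. Of 15 endothelial markers tested, 15 were lower in CBDL2w, 14 in CBDL6w and 13 in CBDL+DSS than in Sham6w, with median log2 differences of -4.09, -4.42 and -3.16 beside -0.095, -0.108 and -0.066 over all features. Their part in the Mup fall was not tested. In these bulk libraries fewer hepatocytes and less of a transcript per hepatocyte cannot be told apart.

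**Figure D2:**
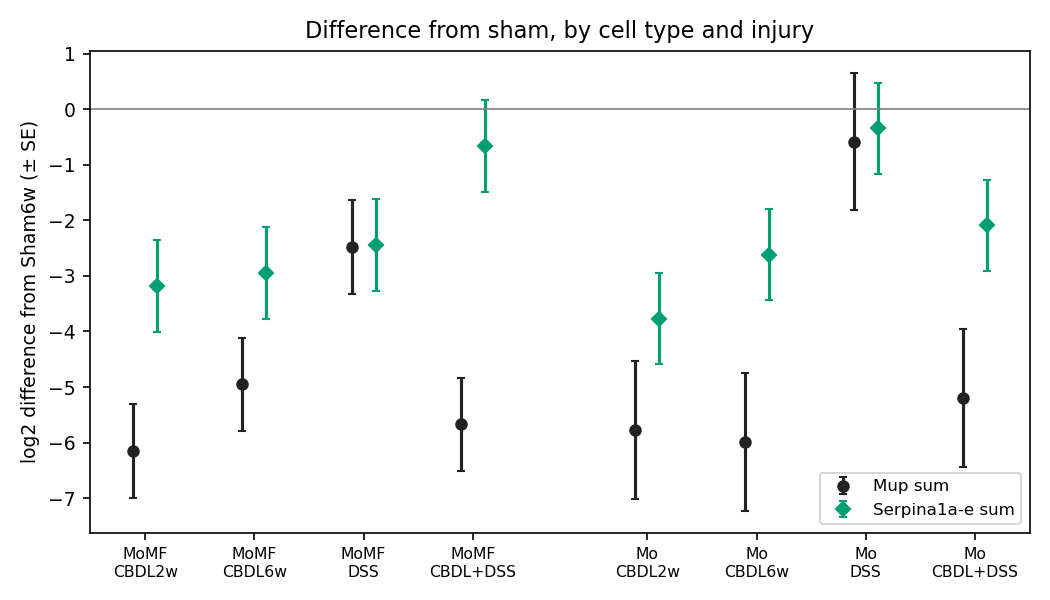
Difference from Sham6w on the log2(normalized count + 1) scale for the summed Mup genes (circles) and the summed Serpina1a to Serpina1e genes (diamonds) in monocyte-derived macrophages (MoMF) and monocytes (Mo), with bars of 1 SE. The Mup difference lies between -4.95 and -6.15 in the ligated groups of both cell types, and between -0.58 and -2.48 in colitis alone.

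The Mup genes changed their place among the hepatocyte transcripts. Trf and Hp, which did not follow the other members, were left out, although kept members differed between the cell types too. Of the reads of all members other than Trf and Hp, Mup genes took 94.2% ± 1.54 (SD, n = 4) in KC Sham6w, 92.3% ± 4.09 (n = 3) in MoMF Sham6w and 91.5% ± 5.18 (n = 3) in Mo Sham6w. In colitis they took 83.3% ± 7.01 in KC, 80.6% ± 6.77 in MoMF and 83.7% ± 4.35 in Mo (n = 4 each). The 3 sham means ran from 91.5% to 94.2%, although all members together took 0.240% of all reads in Mo Sham6w and 1.14% in KC Sham6w. With Trf and Hp included, the shares were lower and the cell types less alike. They were 82.6% to 88.9% in KC Sham6w, 79.7% to 90.1% in MoMF Sham6w and 69.4% to 84.1% in Mo Sham6w. Libraries without ligation then ran from 57.7% to 90.1%, and ligated ones from 0 to 60.6%.

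After ligation the share without Trf and Hp was lower and more variable. It was 50.2% ± 10.2 in KC CBDL2w, 33.8% ± 17.8 in MoMF CBDL2w and 36.5% ± 31.1 in Mo CBDL2w, and 55.4% ± 23.5, 49.9% ± 16.1 and 32.2% ± 33.5 in CBDL6w in the same order. With colitis added to ligation it was 8.09% ± 7.56 in KC, 25.0% ± 17.1 in MoMF and 34.5% ± 23.1 in Mo. Over the 22 libraries without ligation the share ran from 73.9% to 95.8%, and over the 36 with it from 0 to 80.3%. The 2 highest ligated libraries were KC CBDL6w replicate 3 (80.3%, exact binomial 95% interval 75.8% to 84.3%) and Mo CBDL2w replicate 1 (79.2%, 65.9% to 89.2%). Mo CBDL6w replicate 4 had 0 of 14 reads, which allows up to 23.2% by the same interval. The lowest with a read were MoMF CBDL+DSS replicate 1 (1.18%, 0.0298% to 6.38%) and KC CBDL+DSS replicate 1+3 (1.55%, 0.188% to 5.49%). These intervals cover counting error only. The ligated shares rest on 12 to 360 reads per library, those without ligation on 125 to 5564. The share was not tested, since it sums over chosen members.

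**Figure D3:**
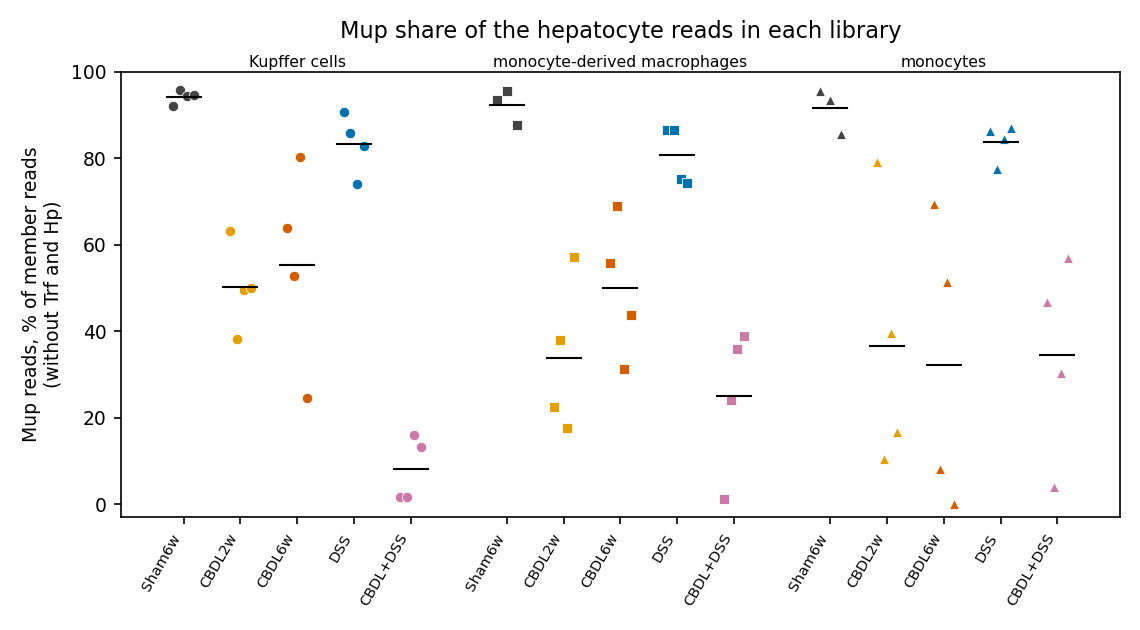
Mup reads as a percentage of all member reads without Trf and Hp, in each library, by cell type and injury, with a black bar at each group mean. The 22 libraries without ligation lie between 73.9% and 95.8% in all 3 cell types, and the ligated libraries spread from 0 to 80.3%.

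**Figure D4:**
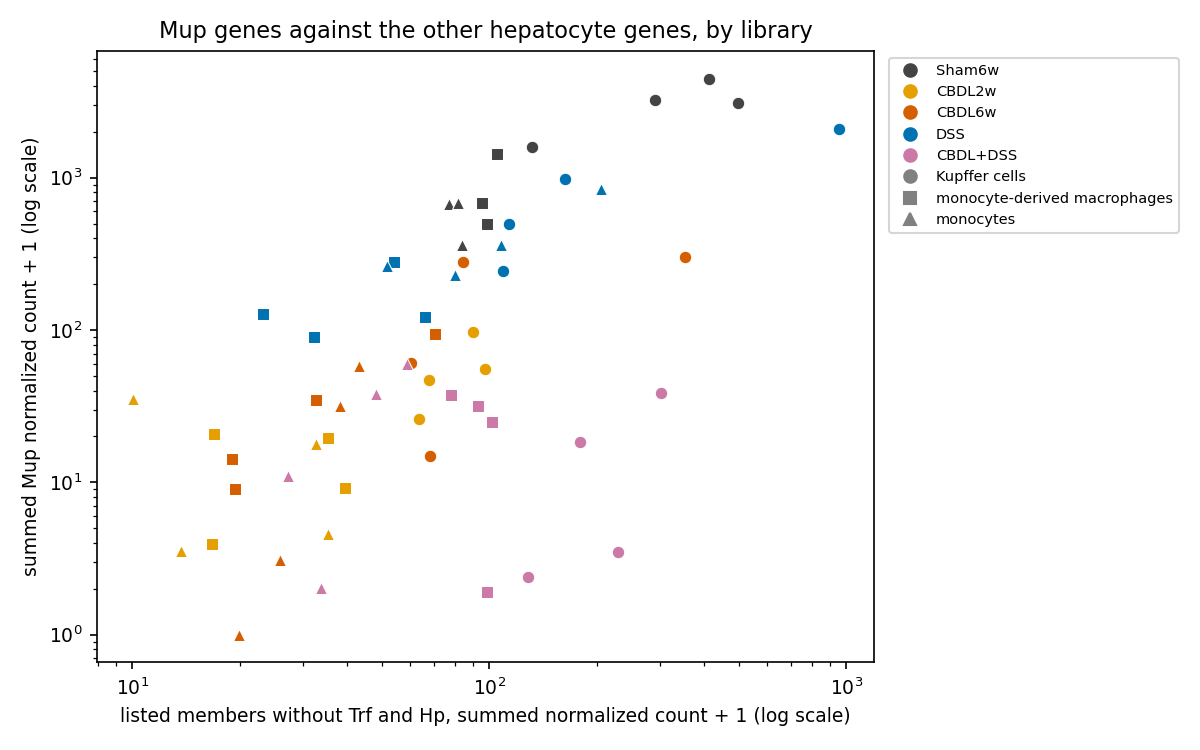
Summed Mup count plus 1 against the summed count plus 1 of the listed members without Trf and Hp, both on log axes, with colours for injury and shapes for cell type. Sham libraries lie at 360 and above on the Mup axis, colitis libraries at 88.9 and above, a range that ligated libraries of KC CBDL2w (95.8), KC CBDL6w (277 and 301) and MoMF CBDL6w (93.5) also reach, and the Kupffer cell CBDL+DSS libraries lie low on it, at 1.39 to 37.3.

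The serpins of the Serpina1 group, alpha-1-antitrypsin homologues that hepatocytes secrete, overlapped between sham and ligated Kupffer cell libraries. Their counts started lower than the Mup sum, so that they could fall less far on this scale, and the 2 falls were not tested against each other. In Kupffer cells their sum was 231, 150, 146 and 38.2 in Sham6w and 39.0, 83.9, 106 and 63.3 in CBDL+DSS, 2 groups whose Mup counts stood far apart. The CBDL+DSS values lay above only the lowest sham value and below the others. CBDL2w held 33.1, 22.3, 41.3 and 20.9. Single libraries were high in CBDL6w (182 in replicate 1, 5.38 to 24.5 in the others) and in DSS (522 in replicate 4, 22.9 to 59.0 in the others).

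In MoMF the Serpina1 sum was 47.05, 39.1 and 27.5 in Sham6w, 10.1, 3.73, 1.96 and 0.995 in CBDL2w, 5.15, 27.1, 0.798 and 0.948 in CBDL6w, 9.71, 2.22, 1.89 and 23.3 in DSS, and 20.2, 25.7, 12.1 and 44.1 in CBDL+DSS. The double injury held 1 library in the sham range and 3 below it, and stood above both single injuries except for CBDL6w replicate 2 and DSS replicate 5+6. The difference from Sham6w was -3.18 ± 0.83 in CBDL2w (limma, adjusted p 0.0400), -2.94 ± 0.83 in CBDL6w (0.0922), -2.44 ± 0.83 in DSS (0.133) and -0.66 ± 0.83 in CBDL+DSS (0.678). The CBDL2w call was lost in 6 of 7 fits that left out 1 library, all but CBDL2w replicate 1. It was also lost with no filter, with edgeR, with the replicate block and with single-number libraries only.

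In monocytes the Serpina1 sum was 43.3, 32.6 and 22.4 in Sham6w, 0, 3.60, 6.17 and 0 in CBDL2w, 17.3, 1.04, 8.28 and 1.26 in CBDL6w, 9.08, 12.9, 40.5 and 76.3 in DSS, and 5.25, 8.18, 3.09 and 13.6 in CBDL+DSS. All 12 ligated libraries lay below the 3 sham libraries, and the colitis libraries spanned both. It fell by 3.77 ± 0.82 in CBDL2w (limma, adjusted p 0.00335) and by 2.62 ± 0.82 in CBDL6w (0.0424); in CBDL+DSS the difference was -2.09 ± 0.82 (0.0989) and in DSS -0.34 ± 0.82 (0.875), a sign that turned in 4 of the alternatives. The CBDL2w call was lost with the replicate block and with single-number libraries only. The CBDL6w call was lost without CBDL6w replicate 2 or 4 or any 1 sham library. It was also lost without the filter, with edgeR, with DESeq2, with the replicate block and with single-number libraries only.

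In MoMF the change of the Serpina1 sum with colitis passed the main test as different with and without ligation, but the call was unstable. The interaction, the change from CBDL6w to CBDL+DSS minus the change from Sham6w to DSS, was 4.71 ± 1.13 (limma, adjusted p 0.0293), and it was the 1 of 6 members that passed where 2.09% of all features did. For the Mup sum the interaction was 1.76 ± 1.14 (limma, adjusted p 0.469). Macrophage markers took 1.165% to 1.55% of reads in MoMF CBDL+DSS and 0.360% to 0.443% in CBDL6w. They took 0.354% to 0.553% in Sham6w and 0.231% to 0.291% in DSS, and their part in the interaction was not tested. The Serpina1 call was lost with edgeR, with DESeq2, with single-number libraries only and in 8 of 15 fits that left out 1 library: CBDL+DSS replicates 1, 2 and 4+5, CBDL6w replicates 3 and 4, DSS replicates 2 and 3, and Sham6w replicate 3. In monocytes 0 of 6 members passed the interaction (0.312% of all features did; 0 had an unadjusted p under 0.05, and edgeR and DESeq2 called 0).

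Ahsg (fetuin-A, a mineral-binding plasma protein; chr16:22891277-22899449) and Alb (albumin; chr5:90460897-90476602) also overlapped between Kupffer cell groups that the Mup sum kept apart. In Kupffer cells Ahsg was 51.1, 25.5, 86.4 and 25.7 in Sham6w and 27.9, 49.9, 62.9 and 45.4 in CBDL+DSS, within the sham range, while CBDL2w held 6.97, 14.6, 24.9 and 4.44. In MoMF it was 14.9, 6.52 and 34.4 in Sham6w, 0 to 13.4 in CBDL2w, 0.798 to 5.15 in CBDL6w, 0 to 12.4 in DSS, and 38.6, 19.5, 13.6 and 8.02 in CBDL+DSS. Alb in Kupffer cells was 25.6, 13.9, 46.6 and 14.1 in Sham6w, 12.5, 15.8, 20.2 and 13.7 in CBDL+DSS and 1.72 to 10.2 in CBDL2w. Alb in MoMF was higher in the 4 CBDL+DSS libraries (10.4 to 17.7) than in the 4 CBDL6w libraries (1.90 to 6.03), but 0 of 6 members passed in that comparison (4.17% of all features did; 4 had an unadjusted p under 0.05, edgeR called 1 and DESeq2 called 3).

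**Figure D5:**
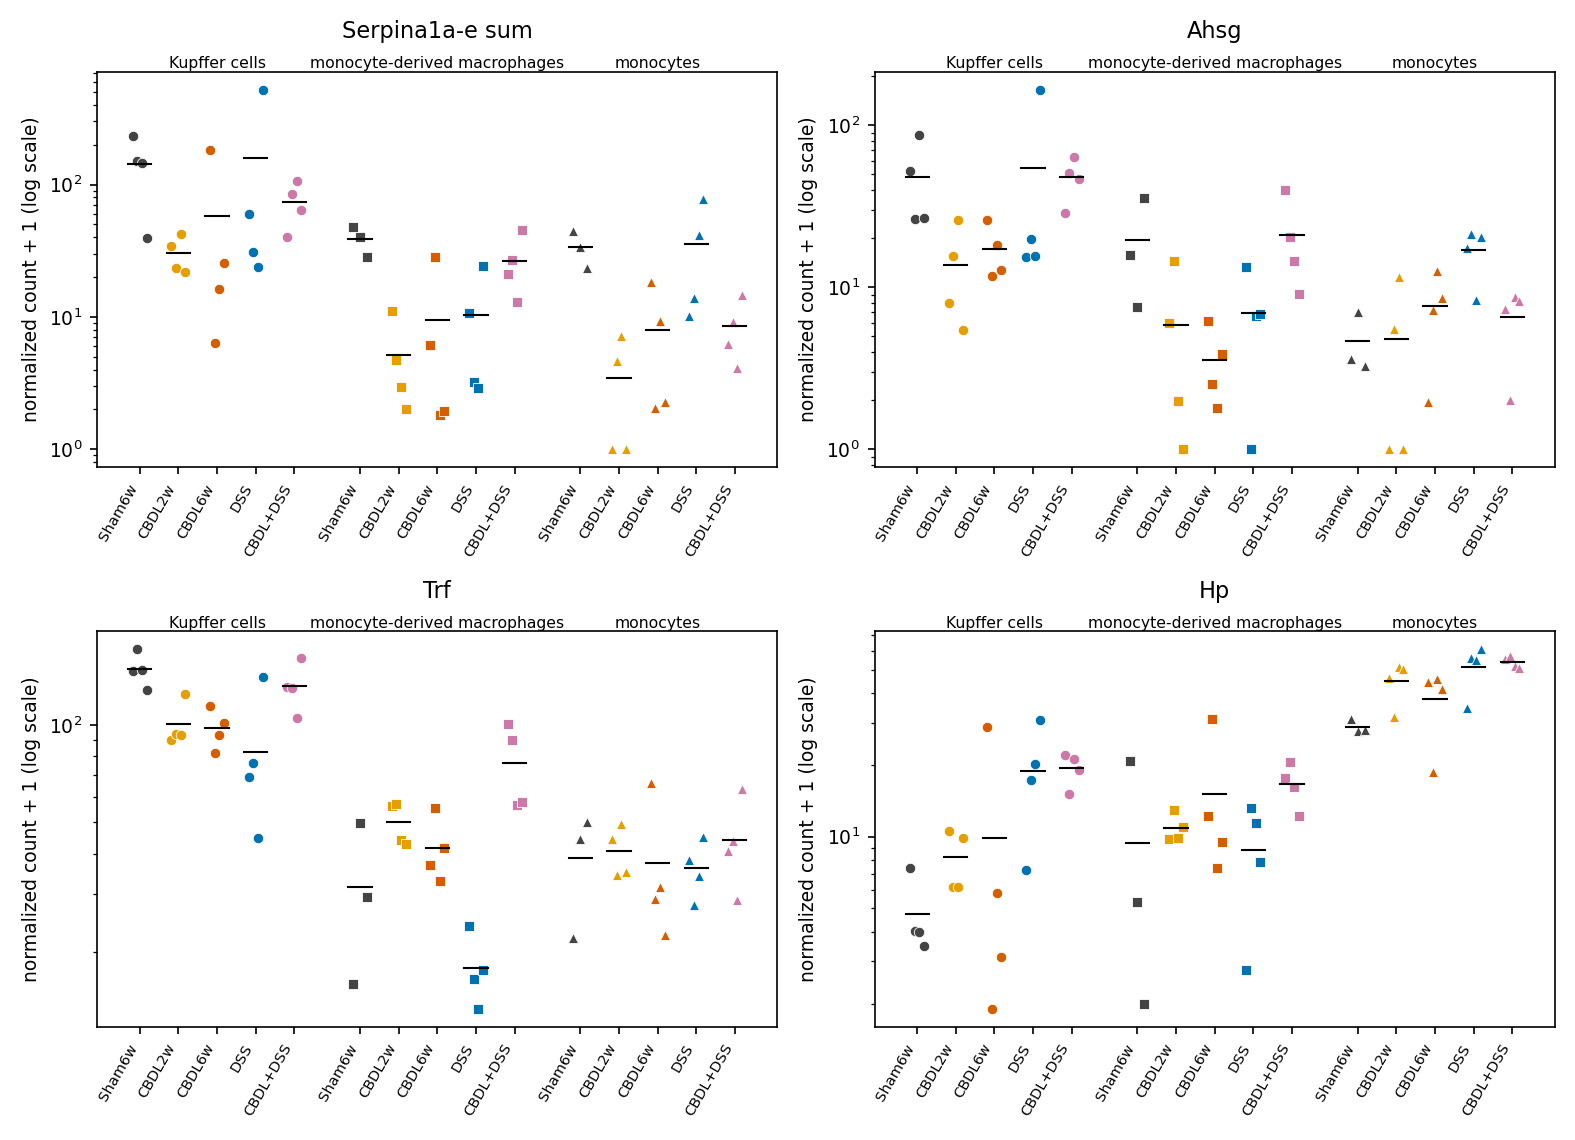
Normalized count plus 1 on log axes for the Serpina1a to Serpina1e sum, Ahsg, Trf and Hp in each library, by cell type and injury, with a black bar at each group mean. In Kupffer cell CBDL+DSS libraries Ahsg lies within the sham range, and the Serpina1 sum lies above only the lowest sham library (38.2). Trf is highest in Kupffer cells and Hp in monocytes.

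Adding colitis to advanced ligation was tested in Kupffer cells too, though the hepatocyte share behind the choice of genes may have drawn on their libraries. The Mup sum was 13.9 to 301 in CBDL6w and 1.39 to 37.3 in CBDL+DSS, a difference of -3.42 ± 0.96 that did not pass (limma, adjusted p 0.0854), and the Serpina1 sum differed by 1.39 ± 0.89 (0.505). Of 12 members 0 passed (1.69% of all features did; 3 had an unadjusted p under 0.05, edgeR called 0 and DESeq2 called 1, the Mup sum, at an adjusted p of 0.00543). In monocytes 0 of 6 members passed between the same groups (0.574%; 1 had an unadjusted p under 0.05, and edgeR and DESeq2 called 0). Between the onset and the advanced stage of ligation 0 of 6 members passed in MoMF (0.0825%) and 0 of 6 in Mo (0%), with 0 at an unadjusted p under 0.05 and 0 by edgeR and DESeq2 in both.

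In Kupffer cells several scarcer members were, like the Mup sum, higher in all sham than in all ligated libraries. Car3, a carbonic anhydrase of pericentral hepatocytes, was 20.2, 21.2, 6.95 and 4.98 in Sham6w. Among the 12 ligated Kupffer cell libraries it was 0.871 in 1 of CBDL2w, 2.64 and 3.59 in 2 of CBDL6w, and 0 in the rest. In DSS it was 0.894, 0, 0 and 15.9, the last in replicate 4. Serpina3k, a serpin that inhibits kallikrein, was 18.1, 11.5, 18.9 and 10.8 in Sham6w and at most 5.29 in the ligated libraries. Transthyretin (Ttr), the thyroxine carrier, was 9.13 to 18.9 in Sham6w, 0.858 to 6.10 in CBDL2w, 2.69 to 7.93 in CBDL6w and 0.697 to 3.58 in CBDL+DSS. For these 3 genes, picked after their values were seen, no sham library overlapped a ligated one. Fabp1, too low for any fit, was 3.32 to 6.39 in Sham6w and at most 2.64 in the ligated libraries. How many of all features were ordered so was not counted, so this order is a description only.

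Fgb, a fibrinogen chain, did not show that order. In Kupffer cells it was 10.7, 3.03, 11.9 and 4.15 in Sham6w, 14.3, 11.3, 13.7 and 30.8 in DSS and 9.06, 16.6, 16.3 and 10.2 in CBDL+DSS, so that all colitis libraries lay above the 2 lower sham libraries and overlapped the 2 upper ones. Apoa2, a protein of high-density lipoprotein, was spread widely within groups, from 2.49 to 28.7 in KC Sham6w, and was at 0 in all 4 CBDL2w libraries of MoMF and all 4 of Mo. Apoc3, which slows triglyceride clearance, ran from 0 to 25.6 in KC Sham6w.

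The other 13 features were too low for the filter of 10 normalized counts in 3 libraries in any fit. Their means over the 58 libraries ran from 0.583 for Cps1, the first enzyme of the urea cycle, to 2.30 for Ass1, another urea cycle enzyme. Of the 13, 12 had their highest group mean in a Kupffer cell group, among them Fgg (10.4 in KC DSS), Fga (5.37 in KC DSS), Apoa1 (5.38 in KC CBDL+DSS), Fabp1 (4.83 in KC Sham6w) and Rbp4 (3.82 in KC Sham6w). Ass1 was the exception, highest in MoMF Sham6w (6.30).

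Trf and Hp did not follow the other members. Trf encodes the iron carrier transferrin (chr9:103204001-103230444). Its count in Kupffer cells was 146, 170, 147 and 127 in Sham6w, 80.7 to 124 in the CBDL2w and CBDL6w libraries, 43.9 to 140 in DSS and 104 to 159 in CBDL+DSS. Ligated and unligated libraries overlapped. In MoMF it was 14.9, 48.9 and 28.5 in Sham6w and 99.3, 88.6, 55.8 and 56.9 in CBDL+DSS, and it rose there by 1.37 ± 0.34 (limma, adjusted p 0.0138); the call was lost without Sham6w replicate 1+2+5 and with single-number libraries only (0.68, adjusted p 0.539).

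Hp encodes haptoglobin, which binds free hemoglobin (chr8:109575128-109579172), and it was highest in monocytes, where counts ran from 17.7 to 59.7. Mo CBDL+DSS held 54.6, 56.3, 50.9 and 49.7 and Mo Sham6w 30.2, 26.6 and 26.9, a rise of 0.90 ± 0.29 (limma, adjusted p 0.0409) that was lost whenever 1 library was left out. Kupffer cell Hp was 2.49 to 6.39 in Sham6w, 14.1 to 20.9 in CBDL+DSS and 6.26 to 29.8 in DSS, in each of these groups below all monocyte libraries of the same injury.

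Between cell types the Hp difference recurred. Hp was lower in MoMF than in Mo by 2.25 ± 0.61 (SE) in Sham6w (limma over 7535 features, adjusted p 0.0167; 1 of 13 members passed, 6.20% of all features), by 2.03 ± 0.53 in CBDL2w (0.0266; 1 of 13, 2.02%), by 2.74 ± 0.53 in DSS (6.50e-04; 2 of 13, 2.32%) and by 1.72 ± 0.53 in CBDL+DSS (0.0484; 1 of 13, 4.31%). The DSS call held whichever library was left out. The Sham6w call was lost without Mo replicate 1+2+5 or MoMF replicate 4+6, the CBDL2w call without any library but replicate 2 of either cell type, and the CBDL+DSS call without any 1 library. With no filter the CBDL2w and CBDL+DSS calls were lost. The Sham6w and CBDL+DSS calls were also lost with the replicate block and with single-number libraries, and the Sham6w call with edgeR. The other member in DSS was Trf, lower in MoMF by 1.04 ± 0.30 (0.0462); it passed in 2 of 8 fits that left out 1 library, those without Mo replicate 2 or MoMF replicate 1. In CBDL6w 0 of 13 members passed between MoMF and Mo (2.22%; 1 had an unadjusted p under 0.05, and edgeR and DESeq2 called 0). The Mup sum passed in none of these 5 comparisons, with differences from -1.39 to 1.55.

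In CBDL6w, Kupffer cells held more of several hepatocyte transcripts than monocytes. The Mup sum was higher by 3.43 ± 1.05 (limma, adjusted p 0.0197), Alb by 1.89 ± 0.58 (0.0181), Serpina3k by 1.72 ± 0.57 (0.0325) and Trf by 1.50 ± 0.30 (1.77e-04), and Hp was lower by 2.66 ± 0.53 (1.86e-04). These 5 of 13 members compare with 15.2% of all features. The Mup call was lost without KC replicate 1 or 3 or Mo replicate 2 or 4, the Alb call without KC replicate 1 or Mo replicate 4, and the Serpina3k call without KC replicate 1 or 3 or Mo replicate 1, 2 or 4. These calls of Mup, Alb and Serpina3k were also lost with no filter, and the Serpina3k call with a pseudocount of 5, edgeR and DESeq2. Against MoMF, Ahsg was higher by 2.35 ± 0.76 (0.0398), Fgb by 1.92 ± 0.60 (0.0321) and Trf by 1.24 ± 0.30 (0.00342), 3 of 13 members where 9.67% of all features passed. The Ahsg and Fgb calls were each lost in 5 of 8 fits that left out 1 library, KC replicate 1 among them, and the Trf call held in all 8. With no filter the Ahsg and Fgb calls were lost too, as was Ahsg with edgeR and Fgb with the replicate block.

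In CBDL+DSS, 6 of 13 members passed between Kupffer cells and monocytes (14.5% of all features). Fgb reached the filter of 10 only in Kupffer cell libraries, and Apoa2 was at most 10.1 in monocytes and 9.91 in MoMF. These 2 thus entered the fit through Kupffer cells, so the count is not independent of their high values there. The Serpina1 sum was higher in Kupffer cells by 3.18 ± 0.86 (limma, adjusted p 0.00651), Ahsg by 3.00 ± 0.76 (0.00369), Apoa2 by 2.46 ± 0.78 (0.0236), Fgb by 2.13 ± 0.60 (0.0101) and Trf by 1.61 ± 0.30 (5.65e-05), and Hp was lower by 1.50 ± 0.53 (0.0478). The Hp call was lost without any 1 library, the Apoa2 call without KC or Mo replicate 2 or 4+5, and the Fgb call without Mo replicate 4+5. With single-number libraries only, the Serpina1, Apoa2, Fgb and Hp calls were lost. The Apoa2 and Hp calls were also lost with no filter, and the Hp call with the replicate block. The Mup sum was not among them: it was 1.39 to 37.3 in Kupffer cells and 1.02 to 58.7 in monocytes, a difference of -0.78 ± 1.05 (adjusted p 0.713). Between Kupffer cells and MoMF 0 of 13 passed (4.90%; 2 had an unadjusted p under 0.05, and edgeR and DESeq2 called 0).

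Hepatocyte genes outside the members were scarce, and few could be tested. A list of 70 others, 67 of them in the table, took 0.0228% to 0.0279% of reads in MoMF Sham6w, 0.0159% to 0.0228% in CBDL2w, 0.0140% to 0.0311% in CBDL6w and 0.0246% to 0.0374% in CBDL+DSS, so most ligated libraries lay in or near the sham range while the Mup sum fell. In Kupffer cells the same list took 0.0493% to 0.109% in Sham6w, 0.0307% to 0.0346% in CBDL2w and 0.0437% to 0.0639% in CBDL+DSS. Between Kupffer cells and monocytes 7 of the list could be tested: 2 were higher in Kupffer cells in CBDL6w (15.2% of all features were called), and in CBDL+DSS 1 was higher and 1 lower (14.5%). Apob, the structural protein of very-low-density lipoprotein, was higher in Kupffer cells than in monocytes by 2.87 ± 0.89 in CBDL6w (limma, adjusted p 0.0205) and by 2.99 ± 0.89 in CBDL+DSS (0.0146). It was at most 10.1 in monocytes and 9.91 in MoMF, so it entered the fit through Kupffer cells. Hal, which degrades histidine, was lower by 2.42 ± 0.70 in CBDL+DSS (0.0117). Pericentral Glul (glutamine synthetase), which macrophages also express, was higher in MoMF CBDL+DSS than in Sham6w by 1.05 ± 0.33 (0.0455), with an interaction of colitis and ligation of 2.22 ± 0.44 (0.00964). Periportal Arg1 (arginase), a macrophage gene as well, was higher in CBDL2w than in Sham6w by 3.08 ± 0.79 in MoMF (0.0354) and by 2.26 ± 0.71 in Mo (0.0377).

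Serum amyloid A is an acute phase protein that hepatocytes make in inflammation. The sum of Saa1 and Saa2 was 0, 0, 1.99 and 1.66 in KC Sham6w, 14.8, 15.4, 5.16 and 18.4 in CBDL2w, 8.94 in replicate 1 and 47.6 to 55.04 in the other 3 of DSS and 34.8, 13.3, 19.4 and 1.19 in CBDL+DSS. CBDL6w held 120, 15.2, 5.76 and 0, the 120 in replicate 1, the library that was also high in Serpina1 and held the highest Mup count of the ligated libraries (301). In MoMF the sum was at most 1.96 in Sham6w and 5.82 to 18.0 in DSS, and in Mo at most 1.31 in Sham6w and 6.14 to 27.9 in DSS. In each cell type the 4 colitis libraries lay above all sham libraries. The ligated groups of MoMF, where Mup fell, ran from 0 to 3.78 in CBDL2w, 0 to 9.05 in CBDL6w and 3.02 to 5.32 in CBDL+DSS, and those of Mo from 2.54 to 9.01, 0 to 18.2 and 0 to 6.95, so that several lay at sham values.

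Receptors and bridging proteins of cell engulfment are given because uptake of hepatocyte material is one of their tasks. Of a list of 12 genes such as Mertk, Timd4 and Mfge8, 8 could be tested in monocytes, and 5 were lower in CBDL2w, 5 in CBDL6w and 3 in CBDL+DSS than in Sham6w, where 13.4%, 11.0% and 12.8% of all features were called. The list medians were -1.60, -1.48 and -0.97, beside -0.095, -0.108 and -0.066 over all features. In MoMF, 3 of 10 were higher in CBDL+DSS (9.34% of all features called; median 0.84 beside 0.080 over all features) and 1 of 10 in CBDL2w (2.77%; median -0.08 beside 0.031), where the Mup sum fell as well. Their part in the level of hepatocyte transcripts was not tested.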

How the data were processed

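The 58 libraries are 3′ mRNA libraries with unique molecular identifiers (QuantSeq). The submitters' processing notes name Trimmomatic 0.39, STAR 2.7.5b, UMI-tools 1.0.1, RSEM 1.3.1, DESeq2 and the build GRCm38.p6. The signal values the authors deposited are read counts per gene divided by a size factor per library, from the file's values: 100.0% of them became whole reads (within 0.01) when multiplied back, and 3′ tags were not scaled by length. Symbols come from GENCODE M21 (25272 of 25307 identifiers matched).

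Mup genes were summed, and Serpina1a to Serpina1e were summed. The main test was limma 3.58.1 (trend, robust; R 4.3.3) on log2(normalized count + 1), per cell type over its 5 injury groups, or over all 58 libraries for cell types within an injury, with Benjamini-Hochberg adjustment over all features that reached 10 in at least 3 libraries and a threshold of 0.05. edgeR 4.0.16 and DESeq2 1.42.0 ran on the recovered reads as alternatives, with a pseudocount of 5, no filter, equal totals, a replicate block, libraries of single numbers only, genes not summed, and each library left out. The fitting code was tested on simulated data. Intervals of shares are exact Clopper-Pearson 95%. No 2 libraries were identical (lowest chi-square per degree of freedom between replicates 2.81).

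Members and gene lists were chosen with earlier results of these data known. Member features with a mean of at least 10 over all libraries are described by their values, as are members that passed a test (up to 6 per comparison) and up to 3 genes per list and comparison; Car3, Serpina3k, Ttr, Fgb, Apoa2, Apoc3 and the Saa genes were described after their values were seen. The mice are 129SV and the printed sequences are the C57BL/6J reference: promoters from RefSeq (GRCm38.p6; 14 Mup and 22 listed genes matched) and coding ends from GENCODE M21. The value of 1 list gene that passed is not reported here.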

Additional observations from a re-analysis of the deposited data

Results flagged for a closer look

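Within groups of 4 libraries, 6 member features were looked at for a single library far from the other 3, in 78 group checks. The cut-off flags about 1 in 20 for normal values, a rate that need not hold for untransformed counts from shared libraries. In these checks 9 values stood out. Of these, 3 lie in KC CBDL6w replicate 1: the Serpina1 sum (182), Alb (37.0) and Hp (27.8). KC DSS replicate 4 stood out for the Serpina1 sum (522) and Ahsg (165); it is one of the libraries for which the genes were chosen. The others were the Serpina1 sum in MoMF CBDL6w replicate 2 (27.1), Trf in KC CBDL2w replicate 4 (124), Hp in KC Sham6w replicate 1 (6.39) and Hp in Mo CBDL6w replicate 2, the 1 low value (17.7). The effect of colitis on the Serpina1 sum in MoMF differed with and without ligation by 4.71 on the log2 scale (limma interaction, adjusted p 0.0293; 0.00344 to 0.117 over the alternatives).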

How the results depend on the processing

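The 31 called member differences were refitted under 478 alternatives in all: 339 kept the call, 139 lost it and 0 reversed. The Mup falls in MoMF CBDL2w and CBDL+DSS passed in all 7 alternatives and all 7 fits without 1 library. Member calls between injury groups, 11 over 13 comparisons, became 6 with no filter, 4 with the replicate block, 2 with single-number libraries and 102 with each Mup and Serpina1 gene alone, which counts more features, and ranged from 9 to 14 without 1 library. Calls between cell types, 19 over 9 comparisons, became 11 with no filter and 33 with genes alone, and ranged from 15 to 20. Interaction calls, 1 over 2 comparisons, became 3 with a pseudocount of 5, edgeR or DESeq2, 2 with the replicate block and 0 with genes alone, and ranged from 0 to 3. With no filter the Mup difference lost its call in CBDL6w between KC and Mo (3.43), in Mo CBDL+DSS against Sham6w (-5.20) and in MoMF CBDL6w (-4.95). With single numbers it lost it in Mo CBDL+DSS (-4.44), CBDL2w (-5.17) and CBDL6w (-5.38) and in MoMF CBDL6w (-5.81), and the Mo DSS value turned to 0.02. The KC against Mo value ranged from 2.39 to 4.34 without 1 library. The Serpina1 value of Mo DSS (-0.34) turned to 0.11 with edgeR, 0.10 with DESeq2 and 0.15 with single numbers, and ranged from -0.86 to 0.12 without 1 library; the Mo interaction (0.87) turned to -0.08 with edgeR and -0.03 with DESeq2. Except for fewer libraries or more features, the cause was not tested. Counts over all features moved by more than 1.5 times in 2 of 24 comparisons with a pseudocount of 5, 8 with no filter, 1 with equal totals, 1 with edgeR, 12 with DESeq2, 12 with the replicate block and 15 with single numbers.

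Replicate numbers are shared across groups, and whether they pair the libraries is not known. Deviations of same-numbered libraries from their group means correlated at -0.057 to 0.091 over 15 pairs of cell types. Over 29 pairs of injury groups the range was -0.05 to 0.068. Differently numbered libraries were not compared, so these correlations cannot decide whether libraries share a mouse. With the replicate block the Mup difference was -6.63 in Mo CBDL+DSS (adjusted p 0.127) and -6.34 in MoMF CBDL6w (0.0907), both without the call, as were Serpina1 in Mo CBDL2w (-3.59, 0.232) and Trf in MoMF CBDL+DSS (0.32, 0.839), and all calls of Mo CBDL+DSS against Sham6w went from 778 to 11 (55 with single numbers). Depth limits the ligated libraries, whose Mup shares rest on 12 to 360 reads.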
